A study of Mus musculus with 20 samples.

Results

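The adipocyte genes described here are 9 genes that mark fat cells, taken as markers of the fat around the bladder: Adipoq, Fabp4, Plin1, Lpl, Cfd, Retn, Lep, Cidec and Pck1. A gene was included when the platform annotation gave a row of the expression table exactly 1 of these symbols. That held for 8 of the 9, each with 1 row, among 30142 genes with such a row. Levels of Cfd (complement factor D, or adipsin) were not analysed here.

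RNA from mouse bladders and metastases was hybridised to 20 Affymetrix whole-transcript arrays. Treated bladder (3 arrays) came from mice given an adenovirus coding for Cre recombinase in the bladder, then the Cdk4/6 inhibitor palbociclib at 150 mg/kg daily for 28 days with 6 mg/kg of cisplatin (CDDP) each week. Metastasis (4 arrays) is metastatic tumour from CKO mice, for which the labels give neither the site nor a drug. Palbo metastasis (1 array) is a metastasis whose title names the inhibitor and whose labels give no dose of its own. Tumour bladder (7 arrays) came from mice given the same virus and no drug, and normal bladder (5 arrays) from mice given neither. All groups share the FVB/N background and the CKO genotype, which carries floxed alleles, that of Rb1 among them, and lacks p107. The virus, not a cell type promoter, sets where Cre acts. Ages, and whether each array came from its own animal, are not stated in the labels, so p-values measure the spread between these samples. The deposited values are log2 levels from RMA, a method that summarises the probes of a gene. They come without detection calls.

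White fat cells store triglyceride in 1 large lipid droplet and release hormones that report on energy stores. Lipoprotein lipase frees fatty acids from circulating lipoproteins, a binding protein carries them through the cell, and perilipin and Cidec coat the droplet and control its size. The transcription factors Pparg and the C/EBP proteins drive these genes as fat cells mature. Several of the genes have other sources: Lpl and Fabp4 are also made by macrophages, Fabp4 by capillary endothelium, and Pck1 by liver and kidney. No label names fat as part of a sample. In bulk tissue, fewer fat cells and less RNA per fat cell cannot be told apart.

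Promoters are shown because C/EBP factors drive fat cell genes and bind a known short motif. RefSeq promoter windows (GRCm38.p6, 250 bases before to 50 after a start) matched 7 of the 9 genes, in 8 windows, since Cidec has 2. Cfd is among these 7 genes, though its level was not analysed. Fabp4 and Lpl had none in the table used. The C/EBP-type motif TTGCNNAA, searched on both strands, was found in 3 of the 8 windows, against 10.81% of 32817 promoters. These 3 windows, of Plin1 (chr7:79732727-79733026, minus strand), Lep (chr6:29059971-29060270, plus strand) and Cidec (chr6:113434715-113435014, minus strand), are printed with the motif in capitals. In Adipoq (chr16:23146286-23146585, plus strand) the capitals mark CCAAT or its reverse complement, held by 1 of the 8 windows against 37.39% of promoters.
Plin1: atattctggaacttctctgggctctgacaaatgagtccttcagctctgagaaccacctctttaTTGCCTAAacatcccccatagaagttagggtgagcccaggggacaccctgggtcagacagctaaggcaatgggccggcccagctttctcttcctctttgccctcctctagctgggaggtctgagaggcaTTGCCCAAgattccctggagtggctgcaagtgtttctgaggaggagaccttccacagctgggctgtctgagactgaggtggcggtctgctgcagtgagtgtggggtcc
Lep: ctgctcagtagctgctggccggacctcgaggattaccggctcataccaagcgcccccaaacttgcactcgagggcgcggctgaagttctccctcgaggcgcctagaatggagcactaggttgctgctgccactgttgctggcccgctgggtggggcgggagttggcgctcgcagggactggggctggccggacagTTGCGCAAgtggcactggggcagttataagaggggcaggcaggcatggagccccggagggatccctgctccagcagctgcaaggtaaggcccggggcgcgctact
Cidec: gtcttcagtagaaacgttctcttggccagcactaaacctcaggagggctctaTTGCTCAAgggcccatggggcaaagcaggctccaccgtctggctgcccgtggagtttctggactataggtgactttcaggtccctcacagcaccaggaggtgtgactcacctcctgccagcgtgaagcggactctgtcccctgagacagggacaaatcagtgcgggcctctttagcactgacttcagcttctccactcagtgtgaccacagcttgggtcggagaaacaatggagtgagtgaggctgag
Adipoq: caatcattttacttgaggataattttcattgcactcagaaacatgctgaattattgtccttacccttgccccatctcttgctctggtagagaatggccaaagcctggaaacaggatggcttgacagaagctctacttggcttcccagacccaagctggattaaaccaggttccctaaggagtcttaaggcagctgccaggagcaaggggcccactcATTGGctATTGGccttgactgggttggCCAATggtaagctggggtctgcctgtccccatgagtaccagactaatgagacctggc
Counted from the start base as 0, the motif lay at -187 to -180 and at -58 to -51 in Plin1, at -55 to -48 in Lep, where it reads on both strands, and at -198 to -191 in Cidec. The 3 CCAAT matches of Adipoq lay at -34 to -30, -27 to -23 and -7 to -3, the first pair on the minus strand. TATAAA (13.62% of promoters) and the nuclear receptor motif AGGTCA (16.26%) were in 0 of the 8 windows. A match is a description of these letters only, and no binding was measured.

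Of the 20 arrays, 8 had little contrast: their dim rows scattered with an SD above 0.30, and their deviations correlated below 0.25 with every other array over 5317 bright rows. They are metastases 3 and 4, tumour bladders 3, 4 and 5, and normal bladders 4, 5 and 6. The other 12 include all 3 treated bladders and the palbo metastasis. The array medians of treated bladder 3 (5.11), tumour bladder 6 (5.12) and metastasis 1 (5.13) were the 3 lowest. Luminal urothelium markers, the uroplakins and keratins of bladder lining, averaged 7.25 to 8.44 in treated bladders, 5.23 to 6.87 in metastases, 4.73 in the palbo metastasis, 5.47 to 9.94 in tumour bladders and 6.73 to 8.46 in normal bladders. The mean level of Lep over the arrays, 4.59, lay under 5.10, the 40th percentile of all row means that served as a filter on dim genes. The other 7 adipocyte genes lay above it. Mean levels of Plin1 (5.27) and Cidec (5.40) lay within the range of the array medians, 5.11 to 5.48. Without detection calls, whether these genes rose above background is not known.

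As a set the adipocyte genes differed more between arrays of 1 group than between groups. The mean deviation of the 8 genes from their own averages was highest on metastasis 1 (0.66), treated bladder 2 (0.59) and treated bladder 1 (0.27), and lowest on treated bladder 3 (-0.53), tumour bladder 6 (-0.52) and metastasis 2 (-0.28). On treated bladder 2 all 8 genes were among their 5 highest arrays, and on treated bladder 3 none was above its own median over the arrays and 7 were among their 5 lowest. The 3 treated bladders thus ranked 2, 3 and 20 of 20. The mean level of the 8 genes was 6.12 ± 0.58 in treated bladders, 6.14 ± 0.39 in metastases, 5.83 in the palbo metastasis, 5.92 ± 0.20 in tumour bladders and 6.02 ± 0.14 in normal bladders (SD, n = 3, 4, 1, 7 and 5). The genes did not keep 1 order over the arrays, so the name adipocyte genes refers here to the list alone. All 3 arrays of lowest median stood at an end of this order, 2 low and 1 high.

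**Figure D1:**
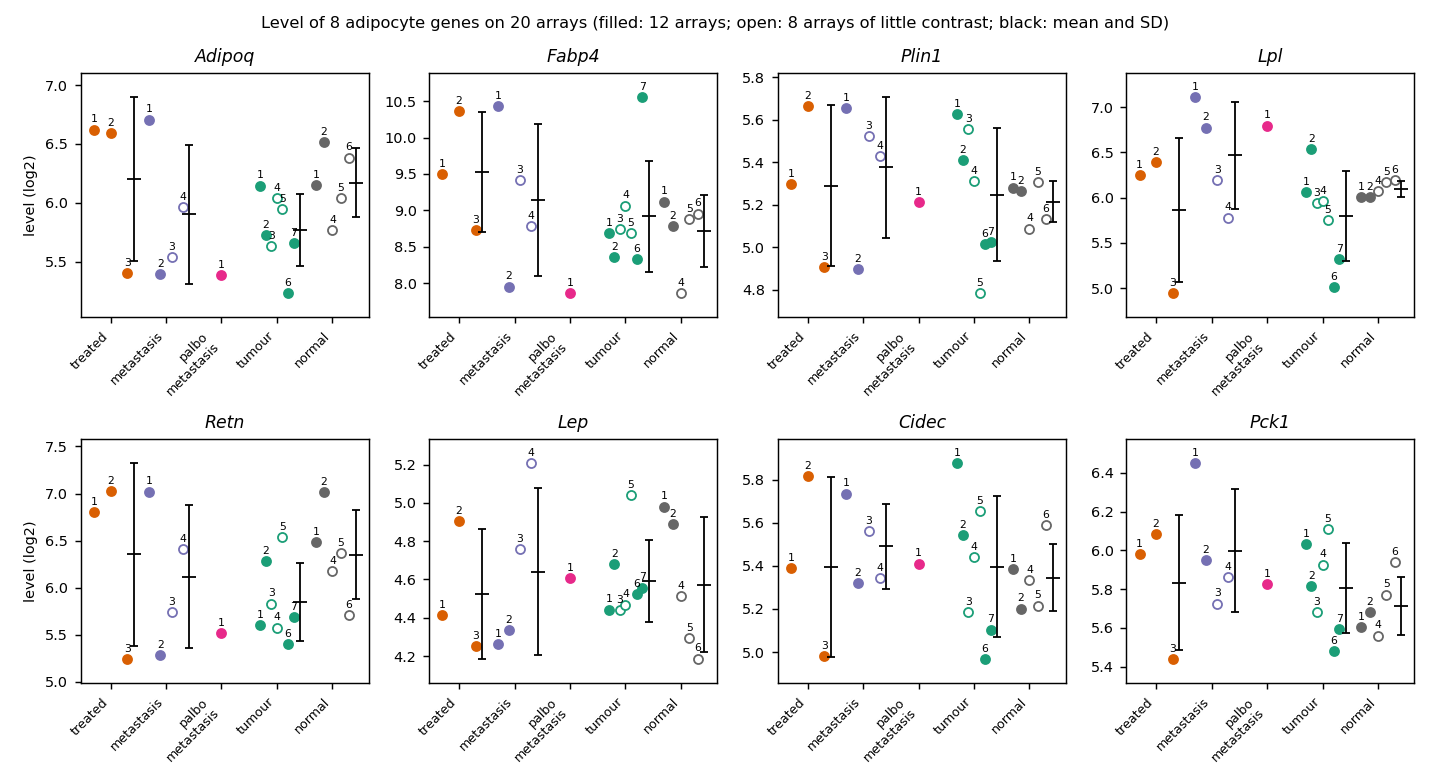
Level (log2) of each of the 8 measured adipocyte genes on every array, in treated bladders, metastases, the palbo metastasis, tumour bladders and normal bladders. Numbers are replicates, filled points the 12 arrays, open points the 8 arrays of little contrast, and black marks the mean with its SD. For Adipoq the treated bladders sit at 6.62, 6.59 and 5.40, which spans nearly the whole range of the gene.

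Adipoq (chr16:23146536-23157968) encodes adiponectin, the hormone of mature fat cells that raises insulin sensitivity. Its level was 6.62, 6.59 and 5.40 in treated bladders and 6.71, 5.40, 5.54 and 5.97 in metastases, with 5.38 in the palbo metastasis. Tumour bladders had a lowest value of 5.23, a median of 5.73 and a highest of 6.15, against 6.15, 6.52, 5.77, 6.04 and 6.38 in normal bladders. Treated bladders 1 and 2 lay above all 7 tumour bladders and treated bladder 3 below 6 of them. Every replicated group overlapped the others. Means were 6.20 ± 0.70 (treated, n = 3), 5.90 ± 0.59 (metastasis, n = 4), 5.77 ± 0.31 (tumour, n = 7) and 6.17 ± 0.29 (normal, n = 5; SD here and for the other genes). From high to low the groups ran treated, normal, metastasis and tumour, and no neighbours in this order differed by more than their SDs.

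Retn (chr8:3655770-3659818) encodes resistin, a hormone that mouse fat cells secrete and that opposes insulin. Its level was 6.80, 7.02 and 5.24 in treated bladders and 7.02, 5.29, 5.74 and 6.41 in metastases, with 5.51 in the palbo metastasis. In tumour bladders the lowest, median and highest levels were 5.40, 5.68 and 6.54, against 6.48, 7.02, 6.18, 6.37 and 5.71 in normal bladders. Retn and Adipoq stood highest on the same 4 arrays, metastasis 1, treated bladders 1 and 2 and normal bladder 2, and lowest on the same 4, treated bladder 3, metastasis 2, the palbo metastasis and tumour bladder 6. All 8 of these are among the 12 arrays outside the set of little contrast. Means were 6.35 ± 0.97 (treated), 6.12 ± 0.76 (metastasis), 5.84 ± 0.41 (tumour) and 6.35 ± 0.47 (normal). The order was the same as for Adipoq, with neighbours closer than their SDs.

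Lep (chr6:29060221-29073876) encodes leptin, the hormone that signals the size of fat stores to the brain. Its level was 4.41, 4.91 and 4.25 in treated bladders and 4.26, 4.34, 4.76 and 5.21 in metastases, with 4.61 in the palbo metastasis. The lowest, median and highest tumour bladders had 4.44, 4.52 and 5.04, against 4.98, 4.89, 4.51, 4.29 and 4.19 in normal bladders. The range of Lep was 0.73 over the 12 arrays and 1.02 over the 8 of little contrast, and that of Plin1 was 0.77 over each. The other 6 genes ranged wider over the 12 than over the 8, among them Lpl with 2.17 and 0.44. On metastasis 1, where Adipoq, Lpl and Pck1 were at their highest, Lep ranked 18 of 20. Means were 4.52 ± 0.34 (treated), 4.64 ± 0.44 (metastasis), 4.59 ± 0.21 (tumour) and 4.57 ± 0.35 (normal). Metastases were highest, then tumour, normal and treated bladders, all within their SDs.

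Lpl (chr8:68880555-68906932) encodes lipoprotein lipase. Its level was 6.25, 6.39 and 4.94 in treated bladders and 7.11, 6.77, 6.19 and 5.78 in metastases, with 6.79 in the palbo metastasis. Tumour bladders had a lowest value of 5.01, a median of 5.94 and a highest of 6.53, against 6.01, 6.01, 6.07, 6.17 and 6.20 in normal bladders. The 3 highest arrays were metastasis 1, the palbo metastasis and metastasis 2, and normal bladders lay within a narrow band. These 3 arrays also had the highest mean of 12 macrophage markers (8.33, 7.89 and 7.44). Tumour bladder 6, next in macrophage markers (7.07), had the second lowest Lpl (5.01). The mean Lpl level was 5.86 ± 0.80 in treated bladders, 6.46 ± 0.59 in metastases, 5.80 ± 0.50 in tumour bladders and 6.09 ± 0.09 in normal bladders. Metastases were highest, then normal, treated and tumour bladders, and neighbours differed by less than the larger of their SDs.

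Fabp4 (chr3:10204342-10208616) encodes the fatty acid binding protein of fat cells. Its level was 9.50, 10.37 and 8.72 in treated bladders and 10.43, 7.95, 9.42 and 8.78 in metastases, with 7.86 in the palbo metastasis. In tumour bladders the lowest, median and highest levels were 8.33, 8.69 and 10.56, against 9.12, 8.78, 7.86, 8.88 and 8.95 in normal bladders. The highest array of all, tumour bladder 7, was not high in the other genes: there Adipoq ranked 14, Plin1 16, Pck1 17 and Lpl and Cidec 18 of 20. Tumour bladder 7 had the highest mean of luminal urothelium markers (9.94) and of smooth muscle markers (9.82). On metastasis 1, second in Fabp4, the urothelium mean was 5.23. The mean of 9 measured endothelial markers was 5.57 to 5.99 in treated bladders, 5.60 to 5.72 in metastases, 5.61 to 5.91 in tumour bladders and 5.74 to 6.24 in normal bladders. Group means of Fabp4 were 9.53 ± 0.82 (treated), 9.15 ± 1.05 (metastasis), 8.92 ± 0.77 (tumour) and 8.72 ± 0.50 (normal), in this order from high to low and each within an SD of the next.

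Plin1 (chr7:79721164-79732904) encodes perilipin, the coat protein that guards the droplet against lipases. Its level was 5.30, 5.67 and 4.91 in treated bladders and 5.65, 4.90, 5.52 and 5.43 in metastases, with 5.21 in the palbo metastasis. Tumour bladders ran from 4.78 over a median of 5.31 to 5.63, against 5.28, 5.26, 5.09, 5.31 and 5.13 in normal bladders. All normal bladders fell within the range of each of the other 3 replicated groups. Means were 5.29 ± 0.38 (treated), 5.38 ± 0.33 (metastasis), 5.25 ± 0.31 (tumour) and 5.21 ± 0.10 (normal). Metastases were highest, then treated, tumour and normal bladders, with no neighbours further apart than their SDs.

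Cidec (chr6:113424634-113435760) encodes a protein through which droplets fuse into 1 large droplet. Its level was 5.39, 5.82 and 4.98 in treated bladders and 5.74, 5.32, 5.56 and 5.34 in metastases, with 5.41 in the palbo metastasis. The lowest, median and highest tumour bladders had 4.97, 5.44 and 5.88, against 5.38, 5.20, 5.34, 5.22 and 5.59 in normal bladders. Tumour bladder 1 had the highest Cidec and tumour bladder 6 the lowest, so that tumour bladders alone spanned the range of 0.91. Means were 5.40 ± 0.42 (treated), 5.49 ± 0.20 (metastasis), 5.40 ± 0.33 (tumour) and 5.35 ± 0.16 (normal). Metastases were highest and normal bladders lowest, within their SDs.

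Pck1 (chr2:173153073-173159274) encodes cytosolic phosphoenolpyruvate carboxykinase, which in fat cells makes glycerol for re-esterified fatty acids and in liver opens gluconeogenesis. Its level was 5.98, 6.08 and 5.44 in treated bladders and 6.45, 5.95, 5.72 and 5.86 in metastases, with 5.82 in the palbo metastasis. In tumour bladders the lowest, median and highest levels were 5.48, 5.81 and 6.11, against 5.60, 5.68, 5.56, 5.77 and 5.94 in normal bladders. On metastasis 2, where 9 measured liver markers averaged 7.22 against 4.72 to 5.40 on the other arrays, Pck1 ranked 6 of 20. Of the 8 genes, Pck1 tracked the mean of the others most closely, ranking 35 of 30135 genes by mean absolute difference. Cidec ranked 735, Plin1 777, Adipoq 4859, Lep 13564, Lpl 22938, Retn 25635 and Fabp4 28296, on a measure that favours genes of small spread. Means of Pck1 were 5.83 ± 0.35 (treated), 6.00 ± 0.32 (metastasis), 5.80 ± 0.23 (tumour) and 5.71 ± 0.15 (normal). The order was that of Plin1, again within the SDs.

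**Figure D2:**
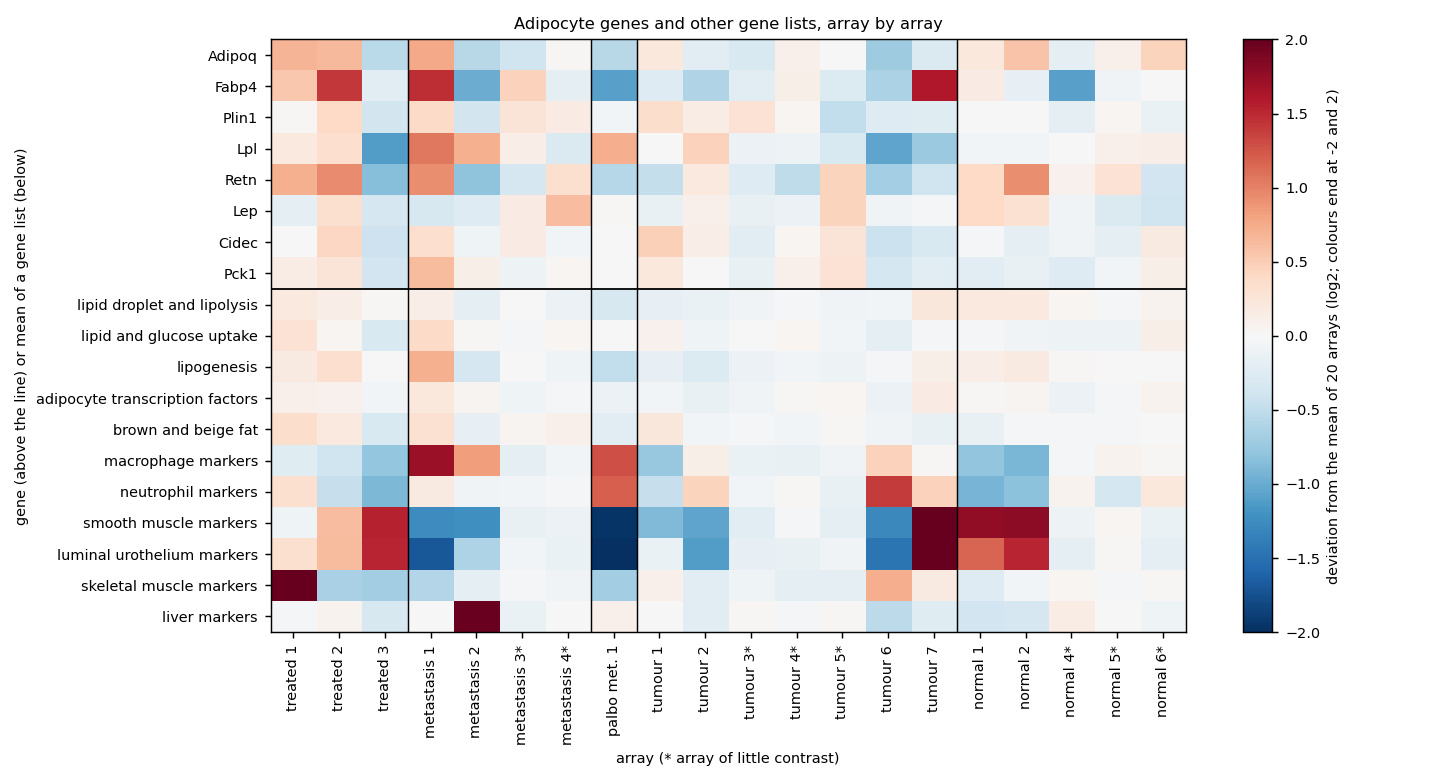
Deviation (log2) of each adipocyte gene, and of the mean of each other gene list, from its average over the arrays, with 1 column per array ordered as treated bladder, metastasis, palbo metastasis, tumour bladder and normal bladder. Red is higher and blue lower, colours end at -2 and 2, and asterisks mark the 8 arrays of little contrast. The adipocyte rows are red on treated bladder 2 and blue on treated bladder 3. On tumour bladder 6 they are blue but for Lep, which is near its average. On metastasis 1 they are red except for Lep, which is below its average (4.26 against 4.59).

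Treated against tumour bladders asks what the drug combination did to bladders given the virus. Tumour bladders 3, 4 and 5 are arrays of little contrast and no treated bladder is, so drug and array contrast are partly confounded. Fabp4 was higher by 0.61 (SE 0.50, 95% interval -0.43 to 1.66), Retn by 0.51 (SE 0.39, -0.31 to 1.33) and Adipoq by 0.44 (SE 0.29, -0.17 to 1.04). The differences of the other 5 genes lay between -0.07 and 0.07. By limma with Benjamini-Hochberg adjustment over all genes, 0 of the 8 passed 0.05 (adjusted p = 1 for each), and 0% of all genes did. At an unadjusted p under 0.05 the count was 0 of 8, with 0.342% of all genes, and 0 of 8 had groups without overlap, with 0.129% of all genes. The median difference was 0.055 over the 8 genes and -0.023 over all genes. Of the 8 genes 6 were higher and 2 lower, and 12827 of all 30142 genes were higher. Treated bladder 3 weighed on each of the 3 largest differences: without it they were 1.01 for Fabp4, 1.07 for Retn and 0.84 for Adipoq, and without treated bladder 2 they were 0.19, 0.18 and 0.24. Without treated bladder 1 Retn differed by 0.29 and Adipoq by 0.23.

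Metastases against tumour bladders asks how spread tumours differ from those in the bladder. Lpl was higher by 0.67 (SE 0.30, 95% interval 0.04 to 1.29, adjusted p = 0.854 by limma), and the other 7 genes were higher by 0.05 (Lep) to 0.27 (Retn). The count past the adjusted threshold was 0 of 8, with 0% of all genes. At an unadjusted p under 0.05 it was 1 of 8, with 5.79% of all genes. That gene was Lpl, with an unadjusted p of 0.0374 from limma. With 1 array left out, this p was 0.0511 to 0.166 without tumour bladder 5, 6 or 7 or metastasis 1 or 2. Without any other single array of these groups it stayed under 0.05. No gene separated the groups without overlap, as 0.504% of all genes did. The median difference was 0.16 over the 8 genes and -0.026 over all genes. Over the 12 arrays the Lpl difference was 1.22 and over the 8 arrays of little contrast 0.10. The former sets only metastases 1 and 2 against tumour bladders 1, 2, 6 and 7. Without metastasis 1 the Lpl difference was 0.45, and Adipoq differed by -0.13, Fabp4 by -0.20 and Retn by -0.03. Plin1, Lep, Cidec and Pck1 then stayed higher, by 0.01 to 0.17. Of all 30142 genes, 13240 were higher in metastases. Of the 12 macrophage markers 11 were higher in metastases, 4 at an unadjusted p under 0.05, with means per array of 6.41 to 8.33 in metastases and 5.85 to 7.07 in tumour bladders. Their part in the Lpl difference was not tested.

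Tumour against normal bladders asks how bladders given the virus differ from those that were not. Retn was lower by 0.51 (difference -0.51, SE 0.33, 95% interval -1.20 to 0.19) and Adipoq lower by 0.40 (difference -0.40, SE 0.24, -0.91 to 0.11). Lpl differed by -0.29, Fabp4 by 0.20 and the other 4 genes by 0.02 to 0.09. By limma 0 of 8 passed after adjustment (adjusted p = 0.998 for each; 0% of all genes), 0 of 8 had an unadjusted p under 0.05 (4.25% of all genes) and 0 of 8 separated the groups (0.166% of all genes). The median difference was 0.027 over the 8 genes and 0.012 over all genes. Over the 12 arrays the differences of Retn and Adipoq were -1.01 and -0.64, and over the 8 arrays of little contrast -0.10 and -0.19. Of these groups the 12 arrays hold only tumour bladders 1, 2, 6 and 7 and normal bladders 1 and 2. Smooth muscle markers, of which 10 of 10 were lower in tumour bladders, averaged 5.59 to 9.82 per array there and 6.76 to 8.68 in normal bladders. Of all 30142 genes, 14124 were lower in tumour bladders.

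Treated against normal bladders sets the treated bladders beside tissue that had neither virus nor drug. Fabp4 was higher by 0.81 (SE 0.53, 95% interval -0.30 to 1.91), Lpl differed by -0.23, and the other 6 genes by -0.05 to 0.12. Without treated bladder 2 the Fabp4 difference was 0.39, and without treated bladder 3 it was 1.21. Retn, at 0.0035, and Adipoq, at 0.03, showed the smallest differences of the 8. Without the 8 arrays of little contrast, which leaves normal bladders 1 and 2 only, these 2 differences were -0.39 and -0.13. By limma 0 of 8 passed after adjustment (adjusted p = 1 for each; 0% of all genes), 0 of 8 had an unadjusted p under 0.05 (0.358% of all genes) and 0 of 8 separated the groups (0.65% of all genes). The median difference was 0.041 over the 8 genes and -0.0095 over all genes. The intervals for Retn, -0.86 to 0.87, and Adipoq, -0.60 to 0.67, leave room for differences of either sign.

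Metastases against normal bladders gave the lowest adjusted p of any adipocyte gene, 0.754 by limma, for Pck1, which was higher by 0.29 (SE 0.17, 95% interval -0.07 to 0.64). The Pck1 difference was 0.13 without metastasis 1, 0.56 over the 12 arrays and 0.04 over the 8 arrays of little contrast. In this comparison the 12 arrays hold only metastases 1 and 2 and normal bladders 1 and 2. Fabp4 differed by 0.43, and by -0.0023 without metastasis 1, 0.82 without metastasis 2 and 0.21 without normal bladder 4. Lpl differed by 0.37, Adipoq by -0.27, Retn by -0.24, and Plin1, Cidec and Lep by 0.16, 0.14 and 0.07. Thus 0 of 8 passed after adjustment (0% of all genes), 0 of 8 had an unadjusted p under 0.05 (6.91% of all genes) and 0 of 8 separated the groups (2.85% of all genes). The median difference was 0.15 over the 8 genes and -0.013 over all genes. Lep differed by -0.64 over the 12 arrays (adjusted p = 0.613 by limma) and by 0.65 over the 8 arrays of little contrast (adjusted p = 0.865), opposite signs that leave 0.07 over all arrays. The comparisons share groups, so their differences are not independent of each other.

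**Figure D3:**
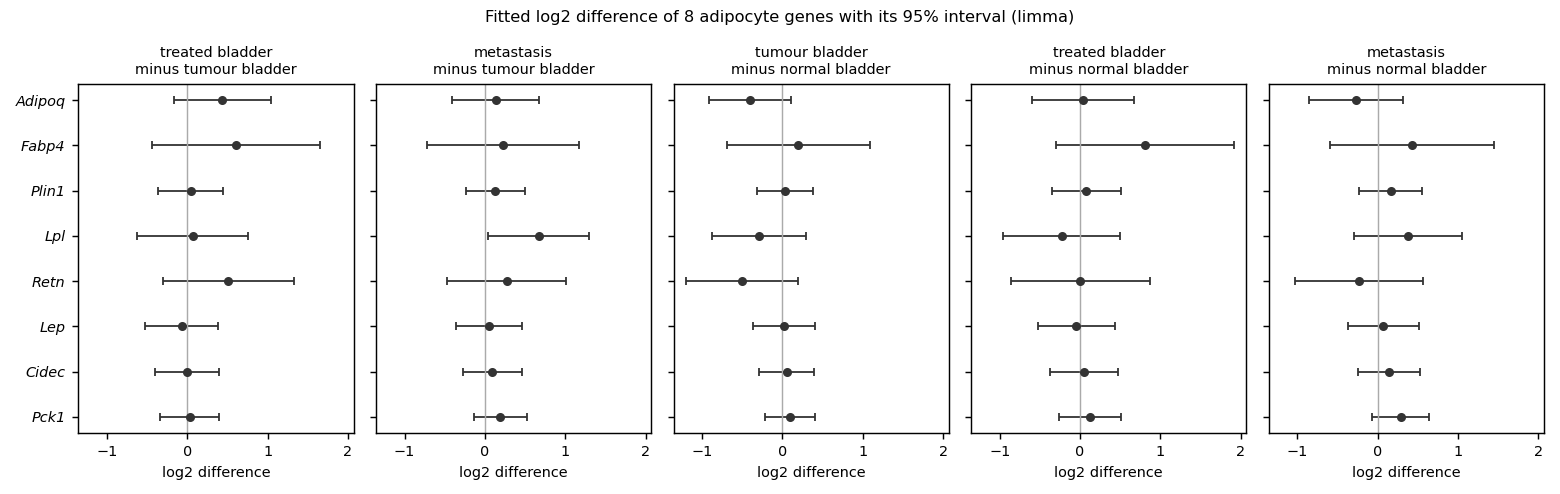
Fitted log2 difference (x axis) of the 8 adipocyte genes in each of the 5 comparisons, as the first-named group minus the second, with 95% intervals from limma. Every interval but that of Lpl in metastases minus tumour bladders (0.04 to 1.29) includes 0.

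The partners of these genes were followed in 7 lists, in which 0 genes passed after adjustment in any comparison. Genes of fatty acid synthesis were higher in treated than in tumour bladders in 10 of 10 measured cases, with a median difference of 0.24 against -0.023 over all genes, of which 12827 of 30142 were higher. Scd1, which desaturates newly made fatty acids, differed by 0.70 and Mlxipl, a glucose-sensing factor, by 0.06. Scd1 was at 8.02, 7.99 and 6.58 in treated bladders, against 6.08 to 7.41 in tumour bladders, and it too was lowest on treated bladder 3 of its group. Of 17 genes of the droplet and of lipolysis, 16 were higher in treated than in tumour bladders, from -0.05 for the lipase Mgll to 0.36 for G0s2, an inhibitor of lipolysis, with a median of 0.13. In the same comparison smooth muscle genes were higher in 10 of 10 cases (median 0.77), luminal urothelium genes in 9 of 9 (0.56) and skeletal muscle genes in 10 of 10 (0.46). Smooth muscle markers averaged 6.81 to 8.43 per array in treated bladders and 5.59 to 9.82 in tumour bladders. Luminal urothelium markers averaged 7.25 to 8.44 in treated and 5.47 to 9.94 in tumour bladders. Skeletal muscle markers averaged 8.73 on treated bladder 1 and 5.18 and 5.22 on the other two treated bladders, against 5.66 to 6.59 in tumour bladders. Their part in the differences of the synthesis and droplet genes was not tested. In tumour against normal bladders 8 of the 10 synthesis genes and 12 of the 17 droplet genes were lower, with Scd1 at -0.68 (unadjusted p = 0.0459, adjusted p = 0.998 by limma) and G0s2 at -0.44. Of all 30142 genes, 14124 were lower in that comparison.

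On metastasis 1 the mean over the synthesis genes, 6.87, was the highest of the 20 arrays, followed by 6.49 on treated bladder 2, while the mean over the droplet genes there, 5.87, was below those of treated bladder 1 (5.93), tumour bladder 7 (5.97) and normal bladders 1 and 2 (5.94 each). Cd36, the fatty acid transporter of fat cells and also of macrophages, had 9.54 on metastasis 1, 8.14 on treated bladder 1 and 5.17 to 7.18 on the other arrays. Plin2, the droplet coat found in most cells, had 8.88 on metastasis 1 against 6.57 to 7.64 elsewhere. Cidea, which marks brown and beige fat, had 6.81 on metastasis 1 against 5.07 to 5.87 elsewhere. Macrophage markers averaged 8.33 on that array, the highest of all. On treated bladder 1, second in Cd36, macrophage markers averaged 6.37 and skeletal muscle markers 8.73, the highest of all arrays. The part of either list in these levels was not tested. In metastases against tumour bladders Cd36 differed by 0.98, Plin2 by 0.50 and the caveola protein Cav1 by -0.55. There 6 of 10 uptake genes and 10 of 17 droplet genes were higher, as were 13240 of all 30142 genes. In metastases against normal bladders Cav1 differed by -0.93 and Cd36 by 0.62.

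The mean of the 11 fat cell transcription factors was highest on metastasis 1 (6.28), tumour bladder 7 (6.24) and treated bladders 1 and 2 (6.18 and 6.16), which include the 3 arrays where the adipocyte genes were highest. Pparg, which is also a factor of luminal urothelium, was highest on tumour bladder 7 (7.26), treated bladder 3 (7.09) and normal bladders 1 and 2 (6.86 and 6.81). These 4 arrays also held the 4 highest means of luminal urothelium markers (9.94, 8.44, 8.09 and 8.46). On treated bladder 3, where Adipoq, Retn and Lpl ranked 17, 20 and 20, Pparg was thus the second highest. Pparg differed by 0.45 in treated against tumour bladders and by -0.48 in metastases against normal bladders. Cebpa differed by 0.26 and 0.69 in the same comparisons, the second at an unadjusted p of 0.0347 (adjusted p = 0.720 by limma). Of the 11 factors 7 were higher in treated than in tumour bladders and 6 in metastases than in tumour bladders. Of all 30142 genes, 12827 and 13240 were higher in these comparisons.

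Receptors and other secreted products included Hp, Lepr and Rarres2. Hp, haptoglobin of liver and fat, differed by 1.26 in metastases against normal bladders (adjusted p = 0.717 by limma) and by 0.88 against tumour bladders. Its highest array was metastasis 2 (10.1), the array of the liver markers. Lepr, the leptin receptor, differed by -0.75 in tumour against normal bladders. There 4 of 4 measured receptor genes were lower, as were 14124 of all 30142 genes. Among normal bladders, replicates 1 and 2 had Lepr levels of 7.99 and 7.45, while the other 3, all arrays of little contrast, had 6.18 to 6.43. Rarres2, which encodes chemerin, differed by 0.29 in treated against tumour bladders, by -0.49 in tumour against normal bladders and by -0.75 in metastases against normal bladders.

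Brown and beige fat genes were higher in treated than in tumour bladders in 6 of 10 cases, from -0.17 (Dio2, which activates thyroid hormone) to 0.73 (Cox8b, a subunit of cytochrome oxidase in brown fat and muscle). Of all 30142 genes, 12827 were higher. Cox8b was at 7.58 on treated bladder 1, 5.42 on treated bladder 2 and 4.17 on treated bladder 3, against 4.37 to 5.51 in tumour bladders. On treated bladder 1 skeletal muscle markers averaged 8.73, against 5.17 to 6.59 on the other arrays, and their part was not tested. In metastases Cox8b was at 7.03, 5.14, 5.002 and 6.33.

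**Figure D4:**
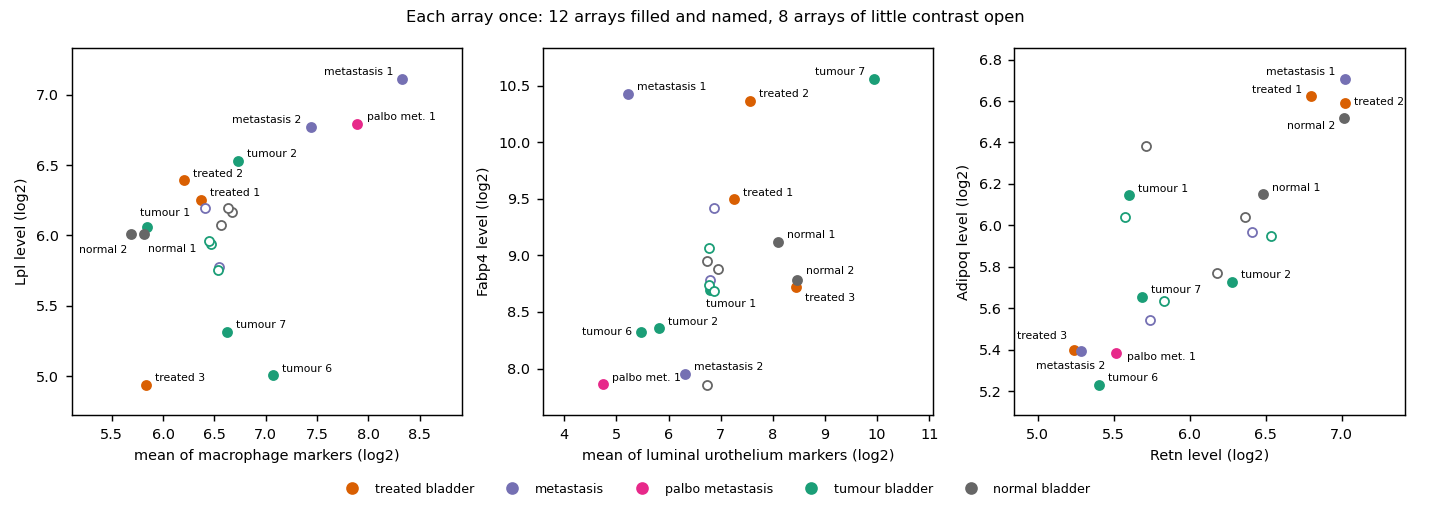
Each array once, with Lpl against the mean of the macrophage markers, Fabp4 against the mean of the luminal urothelium markers and Adipoq against Retn, all as log2 levels. Colours give the groups, filled and named points the 12 arrays, and open points the 8 arrays of little contrast. The 3 arrays of highest Lpl are the 3 of highest macrophage mean, and the same 4 arrays stand highest for both Adipoq and Retn.

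Genes outside the list were compared with the mean profile of the 8 adipocyte genes by the mean absolute difference of deviations over the 20 arrays. The 8 closest were Fam13a (0.13), Acacb (0.13), Lipe (0.13), Rgs22 (0.13), Adhfe1 (0.15), Lgals12 (0.15), Slc36a2 (0.15) and Zfp641 (0.15), where a gene with no variation at all would have scored 0.20 and the median gene scored 0.30. Lipe encodes hormone-sensitive lipase, and Acacb the acetyl-CoA carboxylase that restrains fatty acid oxidation. Lipe was at 5.43, 5.69 and 5.22 in treated bladders and 5.67, 5.12, 5.45 and 5.44 in metastases, with 5.27 in the palbo metastasis. It was at 5.15 to 5.50 in tumour bladders, against 5.49, 5.48, 5.29, 5.32 and 5.68 in normal bladders. Its highest array was treated bladder 2 and its lowest metastasis 2. Over the 12 arrays alone Slc36a2, Lipe and Fam13a ranked 9, 11 and 18, and Zfp641 ranked 77.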

How the data were processed

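The deposited values are log2 expression levels that the authors made with RMA in Affymetrix Expression Console, per the submitters' processing notes, which give no versions. The logarithm was taken as base 2 because RMA gives log2. Per the labels' protocols, the RNA kit used was one made for paraffin-embedded tissue. Values ran from 2.16 to 22.0 over 65956 rows, with none missing. The annotation names 32750 rows, of which the 30604 that give a single symbol entered the work (827 symbols were updated). For the 355 genes with more than 1 row, that of the highest overall mean was kept, leaving 30142 genes. The 2146 rows of several symbols and the 33206 rows without one were set aside. Other engineered genes are not reported here.

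A linear model with the 5 groups was fitted to all genes in limma 3.58.1 under R 4.3.3, without a replicate block. The 5 comparisons were 2-sided, and p-values were adjusted over all genes by Benjamini and Hochberg, with 0.05 as the threshold. The single palbo metastasis entered the fit but no comparison. The procedure was also run on simulated data, with values drawn independently for each gene and array. These held no arrays of little contrast, so that run cannot vouch for the fit on such arrays. Precision is limited by how many arrays each group has.

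The 9 genes, the lists and the set of 8 arrays of little contrast were chosen with earlier results of these data known. Outside the 9 genes, the text names Pparg and Cebpa, genes with the highest or lowest difference of a list in a comparison, and the 8 genes of closest profile. Levels of Cidea on single arrays were named after its values were seen. Promoter sequences are those of RefSeq on GRCm38.p6, and gene coordinates those of RefSeq on the same build.

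Alternatives were: fitting only the groups compared; weighting arrays by quality; a variance prior that is robust and follows the mean level; leaving out dim genes; quantile normalisation applied again; subtracting each array's median; averaging the rows of a gene; a replicate block; adding the palbo metastasis to the metastases; and leaving out single arrays. The 8 arrays of little contrast were also left out, used alone, or given a term.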

Additional observations from a re-analysis of the deposited data

Results flagged for a closer look

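The adipocyte genes were looked at for single arrays far from the rest of their group in 24 sets of 4 to 7 arrays, 8 genes in each of metastases, tumour bladders and normal bladders. In 3 of them the gap to the nearest array was a larger share of the group's range than Dixon's 95% value allows, and chance flags about 1 set in 20. Fabp4 on tumour bladder 7 was 10.56, a gap of 0.670 of the range of the 7 tumour bladders. Fabp4 on normal bladder 4 was 7.86, a gap of 0.734 of the range of the 5 normal bladders. Lep on tumour bladder 5 was 5.04, a gap of 0.596 of the range of the 7 tumour bladders. Normal bladder 4 and tumour bladder 5 are among the 8 arrays of little contrast. Tumour bladder 7 is not, and it had the highest luminal urothelium and smooth muscle markers. Without it, Fabp4 differed by 0.88 in treated against tumour bladders, by 0.50 in metastases against tumour bladders and by -0.076 in tumour against normal bladders.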

How the results depend on the processing

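Of the 40 differences of single adipocyte genes, 14 kept their sign under every alternative run and 26 turned at least once. Of 835 values under alternatives, 79 were turned and 0 passed the adjusted threshold, the lowest adjusted p being 0.388 (Pck1, metastases against normal bladders). Fitting only the groups compared, the other variance prior, leaving out dim genes and averaging rows could not turn a difference. The last could not because each gene had 1 row. Values of these alternatives are among the 835. The count of adipocyte genes called stayed 0 throughout. The count over all genes was 0 except 3 in metastases against tumour bladders and 3 in metastases against normal bladders without the 8 arrays of little contrast, and 1 in the second of these when only the 2 groups were fitted. The causes of the turns were not tested.

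In treated against tumour bladders Cidec (-0.00023) turned to 0.00801 with array weights, 0.054 with renewed quantile normalisation, 0.059 with centred arrays, 0.023 without the 8 arrays and 0.013 with a term for them. With array weights Fabp4 turned to -0.014 in metastases against tumour bladders, Lep to -0.12 in tumour against normal bladders and -0.11 in metastases against normal bladders, and Lpl to 0.11 in treated against normal bladders. Lep turned to -0.024 in tumour against normal bladders with renewed quantile normalisation and to 0.012 in treated against normal bladders with centred arrays. Fabp4 turned to -0.029 in metastases against tumour bladders with the palbo metastasis counted in.

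Without the 8 arrays Lep turned to -0.25 in metastases against tumour bladders, -0.38 in tumour against normal bladders and -0.64 in metastases against normal bladders. In tumour against normal bladders Plin1 turned to -0.0028. In treated against normal bladders Adipoq turned to -0.13 and Retn to -0.39, and with a term for these arrays to -0.015 and -0.067. Within the 8 arrays alone Adipoq turned to -0.12 and Pck1 to -0.11 in metastases against tumour bladders, and Lpl to -0.16 in metastases against normal bladders.

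The labels state no pairing, so the replicate numbers were not taken as pairs. Same-numbered samples had correlations of their deviations, across genes, of -0.51 to 0.33. The arrays of little contrast were picked for low correlations with every other array, so their values cannot speak to pairing. With a replicate block 0 genes were called in each comparison. Under that block Plin1 turned to -0.12 and Lpl to -0.18 in treated against tumour bladders, Plin1 to -0.0073 in metastases against tumour bladders, Fabp4 to -0.049 in tumour against normal bladders and Plin1 to -0.070 in treated against normal bladders.

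With single arrays left out, treated against tumour bladders gave -0.14 to 0.23 for Plin1, -0.20 to 0.53 for Lpl, -0.26 to 0.066 for Lep, -0.21 to 0.21 for Cidec and -0.096 to 0.23 for Pck1. Metastases against tumour bladders gave -0.13 to 0.30 for Adipoq, -0.20 to 0.63 for Fabp4, -0.030 to 0.55 for Retn and -0.14 to 0.17 for Lep. Tumour against normal bladders gave -0.076 to 0.30 for Fabp4, -0.031 to 0.11 for Plin1, -0.075 to 0.12 for Lep and -0.030 to 0.12 for Cidec. Treated against normal bladders gave -0.18 to 0.43 for Adipoq, -0.11 to 0.27 for Plin1, -0.49 to 0.23 for Lpl, -0.33 to 0.56 for Retn, -0.24 to 0.088 for Lep, -0.16 to 0.26 for Cidec and -0.0031 to 0.32 for Pck1. Metastases against normal bladders gave -0.0023 to 0.82 for Fabp4, -0.54 to 0.041 for Retn and -0.12 to 0.20 for Lep.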

Other observations

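Mesothelium lines the abdominal cavity and covers its fat. In metastases against tumour bladders 5 of 5 mesothelium genes were higher, 2 at an unadjusted p under 0.05 and 0 after adjustment by limma, with a median difference of 0.39. Over all genes the median was -0.026, 13240 of 30142 were higher, and 5.79% had an unadjusted p under 0.05. Wt1, a transcription factor of mesothelium, differed by 0.90 and Lrrn4 by 0.83, while Msln, which encodes mesothelin, differed by 0.20. The mean of the 5 genes was 5.70, 6.80, 5.61 and 5.38 in metastases, 5.39 in the palbo metastasis and 4.76 to 6.16 in tumour bladders. The highest array, metastasis 2, was among the 4 lowest for Adipoq and Retn, while metastasis 1, highest in Adipoq, had 5.70. The median difference of the 9 measured fibroblast genes was -0.07 in the same comparison, and that of the 10 neutrophil genes -0.17.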
